A study of Mus musculus with 2 samples.

Results

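The genes described here belong to 7 mouse gene families that are known for long runs of neighbouring copies. They are the placental prolactin genes (Prl), the major urinary proteins (Mup), the clade A and clade B serpins (Serpina, Serpinb), the C-type lectins (Clec), the PRAME-like genes (Pramel) and the F-box and WD repeat genes (Fbxw). Every protein-coding gene on chromosomes 1 to 19 whose symbol starts with one of these family names followed by a digit (Pramel with or without one) was taken, with its position on GRCm38.p6 (mm10), from the gene annotation of RefSeq. This gave 200 members of 20661 protein-coding genes, and 3 more genes with such symbols lie outside chromosomes 1 to 19. The rule leaves out copies under other symbols, such as Mup-ps12 and Mup-ps16, which the annotation calls protein-coding. The families were selected on the count of regions near their genes, so those counts and densities are given as descriptions, with no test.

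The study captured methylated DNA with the MBD2 protein and sequenced it (MBD-seq) in primary chondrocytes, the cells that make cartilage, from the knee cartilage of C57BL/6 mice at postnatal day 3. There was 1 library from Control mice and 1 from mice with a conditional knockout of Uhrf1 (cKO), and both cultures had received rhBMP-2, a growth factor of cartilage and bone, at 100 ng/ml for 24 hours. Uhrf1 binds hemimethylated DNA and recruits the maintenance methyltransferase Dnmt1 to it. The Cre driver of the knockout, the number of mice behind each library and the genotype of the Control beyond that word are not in the labels. The deposited data are a list of 35861 regions with more Control than cKO signal, of which 34675 lie on chromosomes 1 to 19. Every tag count, fold and false discovery rate (FDR) of a region below is the authors' own value in that list. The fold is the Control signal over the local cKO background. The Control library kept 9782276 tags and the cKO library 15039206, so the libraries differed in depth, and with 1 library per genotype no difference has a replicate check. The targeted gene, Uhrf1, carried 5 regions, the largest at 24.59-fold with 57 tags and an FDR of 0.74%.

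Tandem families grow by duplication of a gene beside itself, and their copies often serve a narrow tissue. Placental prolactins are hormones of the trophoblast and decidua, Mup proteins are lipocalins of liver and gland that carry pheromones, and clade A serpins are mostly liver-made plasma protease inhibitors. Clade B serpins act inside cells against proteases, C-type lectins are largely receptors of myeloid and natural killer cells, and Pramel genes are germline and early embryo genes for leucine-rich repeat proteins. Fbxw proteins are substrate receptors of SCF ubiquitin ligases. In mammals, DNA methylation falls almost wholly on CG dinucleotides, and MBD2 binds DNA in which several methylated CG lie close together. A region could therefore be listed only where CG-bearing DNA was captured from Control cells.

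The promoter windows of many members hold little CG, and some copies are much alike. Regions were counted over the whole gene and its surroundings, not over these windows. Each run holds the 250 bases before and 50 after the annotated start, from RefSeq (GRCm38.p6), 5′ to 3′ on the gene's strand, with every CG in capitals. The first pair are copies from the Mup cluster, Mup9 (chr4:60421903-60422202, minus strand) and Mup19 (chr4:61782175-61782474, minus strand). These genes recur below for the regions that lie downstream of both. Their windows hold 3 and 4 CG and are 96.7% identical.
Mup9: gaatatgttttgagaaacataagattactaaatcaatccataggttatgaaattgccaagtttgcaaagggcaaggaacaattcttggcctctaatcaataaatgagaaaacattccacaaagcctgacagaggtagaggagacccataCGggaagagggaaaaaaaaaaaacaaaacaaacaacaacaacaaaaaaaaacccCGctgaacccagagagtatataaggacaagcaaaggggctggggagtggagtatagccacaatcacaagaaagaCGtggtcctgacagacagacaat
Mup19: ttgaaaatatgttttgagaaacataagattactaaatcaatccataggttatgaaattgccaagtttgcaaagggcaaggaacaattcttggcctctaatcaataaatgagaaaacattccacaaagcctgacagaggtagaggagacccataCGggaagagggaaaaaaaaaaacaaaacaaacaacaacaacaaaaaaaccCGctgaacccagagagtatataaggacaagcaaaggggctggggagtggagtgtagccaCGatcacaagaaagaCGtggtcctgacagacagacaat

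Prl3d1 (chr13:27093939-27094238, plus strand) encodes placental lactogen I and opens the largest prolactin cluster. Pramel37 (chr5:94070496-94070795, minus strand) stands for the PRAME-like copies, and its window is identical over all 300 bases to that of Pramel50, at the far end of the same cluster. Fbxw16 (chr9:109449091-109449390, minus strand) is a clustered F-box gene whose window holds no CG.
Prl3d1: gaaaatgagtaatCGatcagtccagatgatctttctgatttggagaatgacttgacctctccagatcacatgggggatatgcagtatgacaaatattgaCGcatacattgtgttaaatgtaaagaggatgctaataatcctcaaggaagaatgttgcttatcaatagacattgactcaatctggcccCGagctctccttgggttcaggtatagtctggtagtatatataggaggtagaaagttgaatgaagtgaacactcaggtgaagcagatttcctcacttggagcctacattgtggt
Pramel37: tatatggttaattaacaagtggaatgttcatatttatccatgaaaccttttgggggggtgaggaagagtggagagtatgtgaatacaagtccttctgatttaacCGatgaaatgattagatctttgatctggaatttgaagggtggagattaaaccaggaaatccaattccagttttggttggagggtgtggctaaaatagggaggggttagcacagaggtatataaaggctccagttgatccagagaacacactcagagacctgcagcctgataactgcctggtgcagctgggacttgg
Fbxw16: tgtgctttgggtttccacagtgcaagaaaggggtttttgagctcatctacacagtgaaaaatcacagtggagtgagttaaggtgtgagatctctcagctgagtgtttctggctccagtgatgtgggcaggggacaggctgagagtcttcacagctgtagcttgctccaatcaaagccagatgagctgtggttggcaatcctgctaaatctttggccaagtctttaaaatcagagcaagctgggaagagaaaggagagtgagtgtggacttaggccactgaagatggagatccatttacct

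A contrasting pair had regions. Serpina12 (chr12:104044394-104044693, minus strand) encodes vaspin, an adipose and skin serpin, and was the only one of 160 members with a matched promoter whose window was overlapped by a region. Fbxw7 (chr3:84815327-84815626, plus strand) encodes the receptor that marks cyclin E, Notch and Myc for destruction. Its window holds 24 CG against 7 in Serpina12, but the regions of Fbxw7 lay outside that window.
Serpina12: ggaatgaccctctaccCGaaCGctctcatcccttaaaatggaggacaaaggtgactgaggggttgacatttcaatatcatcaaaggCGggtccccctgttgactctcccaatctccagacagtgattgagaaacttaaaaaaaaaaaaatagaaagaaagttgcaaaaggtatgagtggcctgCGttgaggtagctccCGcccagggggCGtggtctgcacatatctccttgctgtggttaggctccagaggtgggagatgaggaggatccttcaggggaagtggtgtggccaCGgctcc
Fbxw7: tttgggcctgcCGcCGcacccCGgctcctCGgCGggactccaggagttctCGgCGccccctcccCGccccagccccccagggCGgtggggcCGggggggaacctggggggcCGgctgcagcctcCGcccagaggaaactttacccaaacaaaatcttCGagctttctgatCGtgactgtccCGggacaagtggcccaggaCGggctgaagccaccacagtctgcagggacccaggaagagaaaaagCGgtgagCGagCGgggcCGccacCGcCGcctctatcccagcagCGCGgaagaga

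Of the 200 members, 16 had a region that touched the gene or its surroundings up to 5 kb (8.0%, exact binomial 95% interval 4.64 to 12.67). Among all 20661 protein-coding genes, 10127 (49.0%) had one. These intervals cover counting error only. They treat members as independent, although neighbouring members can share a region or a stretch without one. A member counted as clustered where at least 3 genes of its family followed each other with no more than 1 Mb between neighbours. The label of tandem clusters held for 176 members in 12 clusters, of which 9 had a region (5.11%, 2.36 to 9.49). The remaining 24 members were dispersed over 13 chromosomes, and 7 of them had a region (29.17%, 12.62 to 51.09). When regions over an FDR of 5% were left out, 7 members still had one (3.5%), beside 36.5% of all protein-coding genes. Members are short, with a median of 9.5 kb against 17.5 kb over all protein-coding genes. Among protein-coding genes whose length lay within the members' quartiles (6205 to 17359 bp), 41.7% had a region.

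**Figure D1:**
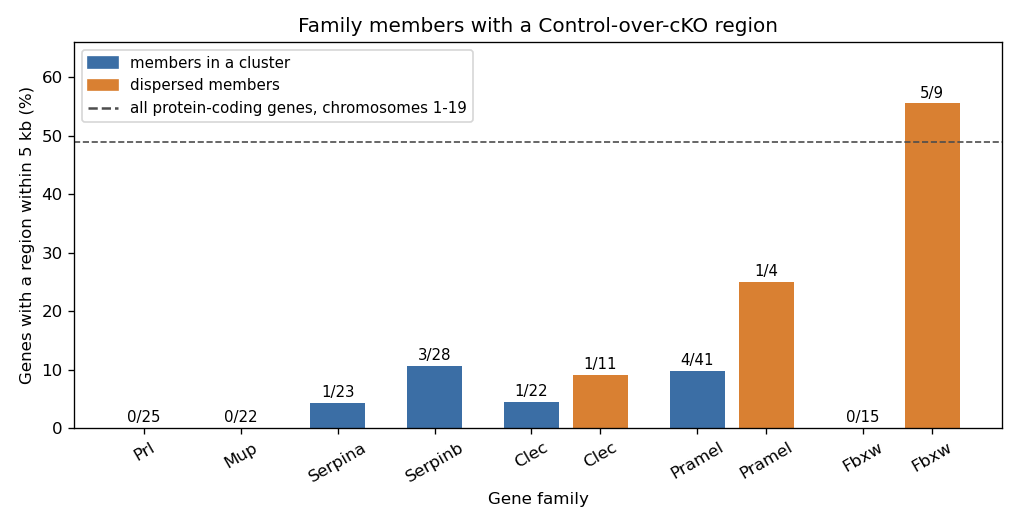
Percent of genes with a Control-over-cKO region overlapping the gene widened by 5 kb, for clustered (blue) and dispersed (orange) members of each family, with counts above the bars and all protein-coding genes as the dashed line (49.0%). No Prl, Mup or clustered Fbxw gene had a region, whereas 5 of 9 dispersed Fbxw genes did.

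Most members lay far from any region. The median distance to the nearest one was 42.6 kb (0 to 409.2), against 5.7 kb over all protein-coding genes, and it was 49.4 kb for clustered and 8.8 kb for dispersed members. Mup22 lay farthest, at 409.21 kb, followed by Serpinb3b at 365.5 kb, Mup12 at 329.0 kb, Serpinb3d at 325.2 kb and Prl7a2 at 292.75 kb. In all, 49 members were more than 100 kb from a region, and 43 were between 5 and 20 kb from one. The 5 kb limit left Clec4a1 (5844 bp), Fbxw9 (5896 bp) and Clec2l (7555 bp) just outside. Serpinb10 (1834 bp) and Pramel7 (2092 bp) were the farthest members within it.

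No placental prolactin gene had a region: 0 of 25 within 5 kb, with distances from 11.21 to 292.8 kb and a median of 115.7 kb. The long cluster on chromosome 13 (27094189 to 28151595) runs from Prl3d1 to Prl5a1 with 22 genes. It contained 2 regions in 1.057 Mb, or 1.89 per Mb (exact Poisson 95% interval 0.23 to 6.83), against 13.0 per Mb (8.49 to 19.05) in the 1 Mb flanks. The first, at 27365424 to 27365833, had 68 tags, 11.39-fold and an FDR of 9.44%. It lay 11.2 kb from Prl8a2, which encodes a decidual prolactin-related protein. The second, at 27983124 to 27983543, had 61 tags, 19.23-fold and an FDR of 0.94%, and lay 32.7 kb from Prl4a1. Between the 2 regions were 618 kb and 12 genes, from Prl2b1 to Prl2c1, without a region. The longest genes without one were Prl3a1 (17.2 kb), Prl7a2 (9.5 kb) and Prl2c3 (9.3 kb).

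The 3 proliferin genes, which encode placental hormones of the same family, form a separate cluster on chromosome 13 (12790816 to 13191930, Prl2c3 to Prl2c5) that was not poor in regions. It held 7 regions, or 17.45 per Mb (7.02 to 35.96), beside 16.0 per Mb (10.94 to 22.59) in its flanks. The largest fold there was 43.82, with 90 tags and an FDR of 0%, at 12863189 to 12863717 and 63.1 kb from Prl2c3. The closest region to a gene of this cluster was 16.25 kb from Prl2c2, which encodes proliferin. Of 9 prolactin and growth hormone axis genes outside the placental family, 7 had a region, beside 49.0% of all protein-coding genes, among them the signal transducers Stat5b (5 regions, largest 14.41-fold) and Stat5a (2, 15.18-fold). The receptors Ghr (3 regions, 31.81-fold, 44 tags, FDR 1.52%) and Prlr (2, 15.59-fold, 43 tags, FDR 11.56%) were also among them. The pituitary hormone gene Prl, which lies just outside the placental cluster, had 1 region of 4.62-fold with an FDR of 100%. Gh (7.36-fold) and Jak2 (9.91-fold) also had 1 region each with an FDR of 100%. Ghrhr and Pou1f1 had none.

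No Mup gene had a region either: 0 of 22 within 5 kb, with distances from 8.62 to 409.2 kb and a median of 39.6 kb. Their cluster on chromosome 4 (59956804 to 62150841) was nevertheless not empty. It held 24 regions in 2.194 Mb, or 10.94 per Mb (7.01 to 16.28), against 22.5 per Mb (16.41 to 30.11) in its flanks. Only 16.3% of the cluster lies within 5 kb of a Mup gene, and all 24 regions lay outside that part. Their median fold was 25.41 (7.49 to 69.21), and 14 had an FDR of at most 5%. The region nearest a gene, at 61822247 to 61822696, had 60 tags, 17.89-fold and an FDR of 0.63%, and lay 8.62 kb from Mup5. Mup20, the longest Mup gene at 42.8 kb, encodes the male pheromone protein darcin. Its nearest region was 9.81 kb away, at 62063956 to 62064523, with 173 tags, 12.91-fold and an FDR of 0%.

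Some regions of the Mup cluster recurred at like distances from a few of its copies, a pattern noticed after the values were seen. Mup9 and Mup19, whose promoters are printed above, both run on the minus strand. A region stood 13.85 kb downstream of the start of Mup9 and one 13.92 kb downstream of Mup19, at 10.92-fold and 10.55-fold. The next pair stood at 41.47 and 41.67 kb, with 7.49-fold and 9.27-fold. Behind it came a pair at 44.26 and 44.35 kb, with 45.09-fold and 63.09-fold. The last pair stood at 55.62 and 55.8 kb, with 69.21-fold and 62.62-fold. The order of the folds along the first 3 pairs, low, low and high, was thus the same at both genes. Mup15 had a pair at 37.84 and 40.62 kb, with 11.27-fold and 49.44-fold. Both distances were shorter than those of the like pairs at Mup9 and Mup19. A further group at 60268265 to 60283190 had spacings of 11.48 and 2.87 kb, near the 11.36 and 2.79 kb of the far regions of Mup9, and folds of 56.03, 44.18 and 7.86. The tag counts behind these folds were small, from 31 to 130. Both spacings of a consecutive triplet recurred within 5% in 5 of the 22 triplets of this cluster and in none of the other 11 clusters. Those clusters held at most 9 triplets each. The Prl3d1 to Prl5a1, Serpinb5 to Serpinb8, Clec4a1 to Clec4e and Fbxw21 to Fbxw27 clusters held 0, so none could recur there. Some of the 5 recurring triplets share regions with each other. Over chromosomes 1 to 19, counted within a span of the same length, 1565 of 34637 triplets (4.52%) recurred. How the aligner placed reads that match several copies is not given in the sources used here, so separate copies and reads shared between copies cannot be told apart.

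**Figure D2:**
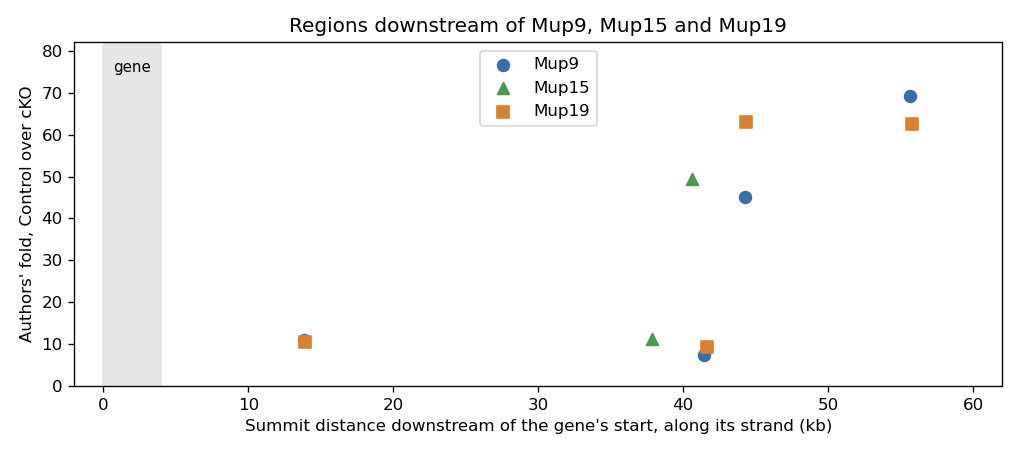
Distance of region summits downstream of the start of Mup9, Mup15 and Mup19 along the gene's strand (kb) against the authors' fold, with the extent of the gene in grey. The 4 regions of Mup9 and the 4 of Mup19 stand at nearly the same distances, between 13.85 and 55.8 kb, and at both genes the folds at the 2 far positions exceed those at the near ones.

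The longest stretch of the Mup cluster without a region ran over 991 kb, from 60408233 to 61399214, and held 8 genes from Mup9 to Mup14. Within it, 322 kb (60840702 to 61163063) carry no gene model of any kind in the RefSeq table. Whether this sequence is fully assembled was not tested. Other lipocalins, which share the barrel fold of Mup proteins, had regions in 3 of 8 genes, beside 49.0% of all protein-coding genes. These were Apod, a lipid carrier (2 regions, largest 11.18-fold), Rbp4, the retinol carrier (12.91-fold), and Apom, an apolipoprotein of HDL (7.07-fold).

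Of 23 clade A serpins, all in a single cluster on chromosome 12 (103616675 to 104414334), 1 had a region. It was Serpina12, with 59 tags, 6.75-fold and an FDR of 100% at 104044185 to 104044594, over the promoter printed above. The cluster held 7 regions, or 8.78 per Mb (3.53 to 18.08), against 22.5 per Mb (16.41 to 30.11) in its flanks. The largest fold among them, 78.25 with 72 tags and an FDR of 0%, stood at 103929585 to 103929994 between genes, 16.9 kb from Serpina1e, a copy of the gene for alpha-1-antitrypsin. A second strong region, at 103793875 to 103794482, had 324 tags and 14.56-fold and lay 20.24 kb from Serpina1d. The longest genes without a region were Serpina3j (19.9 kb), Serpina9 (17 kb) and Serpina10 (14.8 kb), the last an inhibitor of coagulation factor Xa.

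Clade B serpins form 2 clusters, in which 3 of 28 genes had a region. Serpinb2, which encodes the plasminogen activator inhibitor PAI-2, and its neighbour Serpinb10 shared a single region on chromosome 1 at 107526614 to 107527160. It had 305 tags, 5.56-fold and an FDR of 0%, and lay between them, 1014 bp from Serpinb2 and 1834 bp from Serpinb10. This was the only region of that cluster (106861175 to 107608978), whose density was 1.34 per Mb (0.03 to 7.45). The flanks were poor as well, at 4.5 per Mb (2.06 to 8.54). The stretch after this region was 1329 kb long and ranked 29 among the 34656 gaps between neighbouring regions, but only 82 kb of it lay inside the cluster. The genes from Serpinb5 to Serpinb2 lay in the stretch before this region, which began 108.21 kb outside Serpinb5. The serpins on chromosome 13 (32842092 to 34002794) had 9 regions, 7.75 per Mb (3.55 to 14.72) beside 10 per Mb (6.11 to 15.44). Serpinb1c, a copy of a neutrophil elastase inhibitor gene, had one 234 bp outside its span with 49 tags, 18.02-fold and an FDR of 8.26%. Serpinb6a is 84.9 kb long and has 25 CG in its promoter window, yet its nearest region was 39.83 kb away. Of the serpins of clades C to I, which mostly lie apart from each other, 6 of 11 carried a region (54.5%), near the 49.0% of all protein-coding genes. Among them were Serpine2, a thrombin inhibitor (3 regions, largest 14.39-fold), Serpinc1, antithrombin (2, 33.27-fold, 196 tags), Serping1, the C1 inhibitor (2, 16.15-fold), and Serpinf2, the plasmin inhibitor (2, 15.69-fold).

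Of 33 C-type lectin genes, 2 had a region, and both regions had an FDR of 100%. Clec4a3, a myeloid receptor gene on chromosome 6, held one of 17 tags and 17.94-fold at 122962034 to 122962178. Clec16a, on chromosome 16, encodes an endolysosomal regulator of mitophagy and is no receptor of this kind. It spans 199.6 kb and held one of 108 tags and 4.54-fold at 10641880 to 10642350. The cluster from Clec4a1 to Clec4e had 2 regions, 5.43 per Mb (0.66 to 19.63) beside 15.5 (10.53 to 22). The cluster from Clec2h to Clec7a, the second of these genes encoding the beta-glucan receptor dectin-1, had 4 regions and none near its 13 genes, 4.94 per Mb (1.34 to 12.64) beside 17 (11.77 to 23.76). A run of 9 of its genes, from Clec2e to Clec7a, lay in a stretch of 460 kb without a region. Clec12b (52.1 kb), Clec2g (50.3 kb) and Clec4a4 (34.1 kb) were the longest clustered lectin genes without one. Clec3a, a lectin of cartilage, and Clec11a, an osteogenic factor, are dispersed genes that had their nearest region at 18.47 and 37.52 kb, and they were picked out after their values were seen. Downstream of C-type lectin receptors, 5 of 9 signalling genes had a region, near the 49.0% of all protein-coding genes. The kinase gene Syk held 5 (largest 36.94-fold), the adaptor gene Bcl10 held 2 (84.87-fold), and the phosphatase gene Ptpn6 held 1 (13.32-fold).

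Of 45 Pramel genes, 5 had a region, 4 of them clustered, and none of these regions had an FDR of at most 5%. Pramel13 on chromosome 4 had 2, of 111 tags and 9.22-fold (FDR 5.28%) and of 101 tags and 7.86-fold (FDR 13.08%). Pramel1, on the same chromosome, also had 2. The one within its span, at 143394535 to 143395080, had 334 tags but a fold of only 2.82, the lowest of any region in the 12 clusters. Pramel4 (67 tags, 7.34-fold) and Pramel34 on chromosome 5 (120 tags, 6.39-fold, FDR 100%) had 1 each. Pramel7, on chromosome 2, is known to bring Uhrf1 to a Cul2 ubiquitin ligase for degradation in embryonic stem cells. It had a single region of 87 tags and 4.29-fold with an FDR of 100%, 2092 bp outside its span. Of 5 genes listed as PRAME partners, Uhrf1, Rbx1 (3 regions, largest 30.82-fold) and Eloc (25.5-fold, 29 tags, FDR 49.08%) had a region, beside 49.0% of all protein-coding genes, and Cul2 and Elob had none.

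The 3 Pramel clusters were unlike each other. The one on chromosome 5 (93481827 to 95736173, 18 genes) had 11 regions, 4.88 per Mb (2.44 to 8.73) against 20.5 (14.71 to 27.81) in its flanks. These regions were much alike, with 10 of 11 between 529 and 635 bp long and a median of 7.79-fold (5.9 to 23.07). Pramel38, Pramel35 and Pramel33, at 60.7, 60.7 and 54.5 kb, were its longest genes without a region. The cluster on chromosome 4 from Pramel1 to Pramel13 (143394441 to 144408467) had 10 regions, 9.86 per Mb (4.73 to 18.14) beside 17.5 (12.19 to 24.34). The 3 genes from Pramel17 to Pramel19 on chromosome 4 (101834969 to 101943183) had none within 5 kb, although 4 regions lay among them, 36.96 per Mb (10.07 to 94.64) beside 11.5 (7.29 to 17.26). The strongest of these had 343 tags and 9.32-fold at 101896373 to 101896960, 12.16 kb from Pramel18.

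The Fbxw family split by arrangement, and gene length differed along with it. None of the 15 genes in the cluster on chromosome 9 (109139454 to 109790660) had a region, with distances from 9.15 to 230.9 kb, and 5 of 9 dispersed Fbxw genes had one. The clustered genes had a median length of 20.3 kb (15.66 to 28.5) and the dispersed ones of 30.4 kb (4.72 to 164.2). Of those with a region, Fbxw2 spanned 21.9 kb, but Fbxw4, Fbxw8, Fbxw11 and Fbxw7 spanned 82.3, 90.5, 104.3 and 164.2 kb. The dispersed genes without one, Fbxw5, Fbxw9, Fbxw17 and Fbxw10, spanned 4721, 7003, 15947 and 30398 bp. Whether arrangement or length goes with the regions was not tested. The cluster held a single region, at 109635210 to 109635642, of 94 tags and 5.22-fold with an FDR of 82.88%, 9.15 kb from Fbxw24. Its density of 1.54 per Mb (0.04 to 8.56) stood beside 45.5 per Mb (36.63 to 55.86) in its flanks, the lowest ratio of the 12 clusters (0.03). Of the 15 genes, 11 lay in a stretch of 515 kb without a region, from Fbxw21 to Fbxw24. Fbxw26 (28.5 kb), Fbxw23 (26.8 kb) and Fbxw18 (26.0 kb) were the longest.

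The dispersed Fbxw genes with regions include the best known substrate receptors of the family. Fbxw8 on chromosome 5 (118064981 to 118155458), a partner of Cul7, held 5 regions, the largest by tags with 404 tags and 12.51-fold at 118105498 to 118106201. Another Fbxw8 region, at 118077880 to 118078358, had 163 tags and 23.36-fold. Fbxw4 on chromosome 19 (45578254 to 45660520), which encodes dactylin and is altered in the limb mutant dactylaplasia, held 5 regions. Of these, 4 had an FDR of at most 5%, with 115 to 218 tags and 9.01-fold to 18.67-fold. The fifth had the largest fold near any member, 32.96, but only 23 tags and an FDR of 31.67%. Fbxw7 on chromosome 3 (84814990 to 84979198) held 4, among them 214 tags at 14.18-fold and 71 tags at 18.07-fold. Fbxw11 on chromosome 11 (32642555 to 32746816), the receptor beta-TrCP2 for beta-catenin and IkB, held 3, up to 319 tags and 14.24-fold. Fbxw2 on chromosome 2 had 1 region 296 bp outside its span, with 241 tags and 7.93-fold. Each of these 5 genes had a region with an FDR of at most 5%, and outside this family Serpinb2 and Serpinb10 alone did. Fbxw9, Fbxw10, Fbxw17 and Fbxw5, the other dispersed genes, lay 5.9, 8.15, 14.62 and 16.93 kb from a region. Of 7 SCF core and regulator genes, 5 had a region, beside 49.0% of all protein-coding genes. Among them were Rbx1, Nedd8 (3 regions, largest 14.81-fold) and Btrc, the gene for beta-TrCP1 (3, 15.16-fold). The largest folds at Cand1 (19.88, 23 tags) and Skp2 (29.66, 22 tags) had FDR values of 86.52% and 38.44%. Skp1 and Cul1 had none.

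Over all families, the 12 clusters held 82 regions in 11.56 Mb, or 7.09 per Mb. Their flanks held 432 in 24.0 Mb, or 18.0 per Mb, and chromosomes 1 to 19 held 14.2 per Mb. In 10 of 12 clusters the density was below that of the flanks, a description only, because the families were selected on these values. In 4 of them the counting interval of the cluster lay wholly below that of its flanks. In the other clusters the intervals overlapped. The clusters were thus not free of regions between their genes, and among dispersed members the share with a region ran up to 5 of 9 in Fbxw. Of the 82 regions, 8 lay within 5 kb of a member and 50 were more than 20 kb from one. Of the 28 protein-coding genes inside the clusters that the symbol rule did not take, some of them copies such as Mup-ps12, 3 had a region (10.7%), against 122 of 248 protein-coding genes in the flanks (49.2%).

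**Figure D3:**
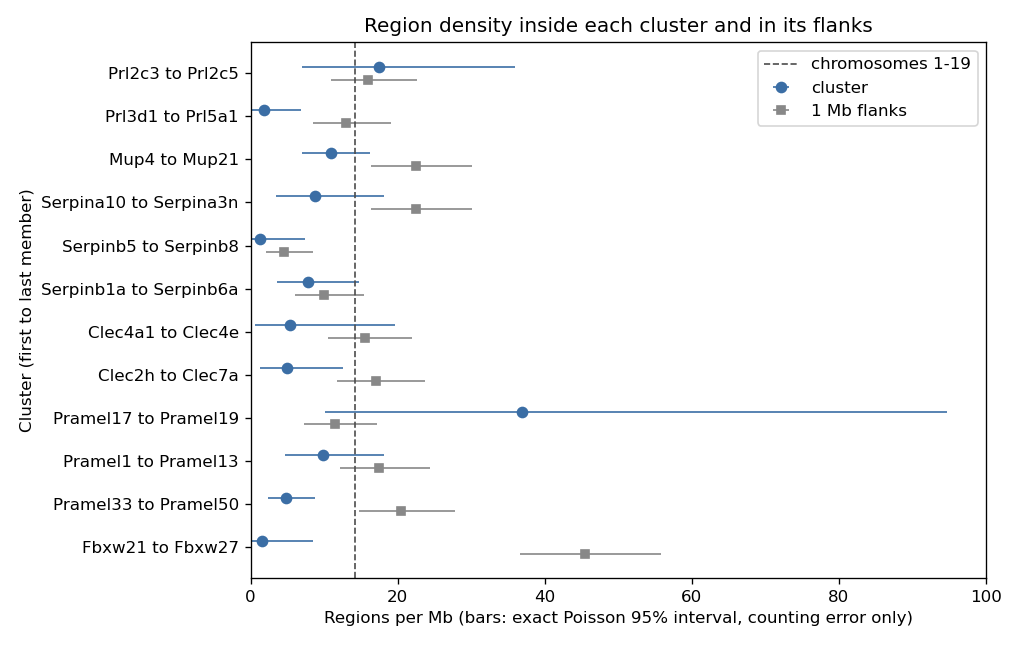
Regions per Mb inside each of the 12 clusters (blue circles) and in the 1 Mb flanks on both sides (grey squares), with exact Poisson 95% intervals for counting error only, and the density of chromosomes 1 to 19 as the dashed line (14.2). The Prl2c3 to Prl2c5 and Pramel17 to Pramel19 clusters lie above their flanks, and the Fbxw cluster has the widest gap (1.54 against 45.5).

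**Figure D4:**
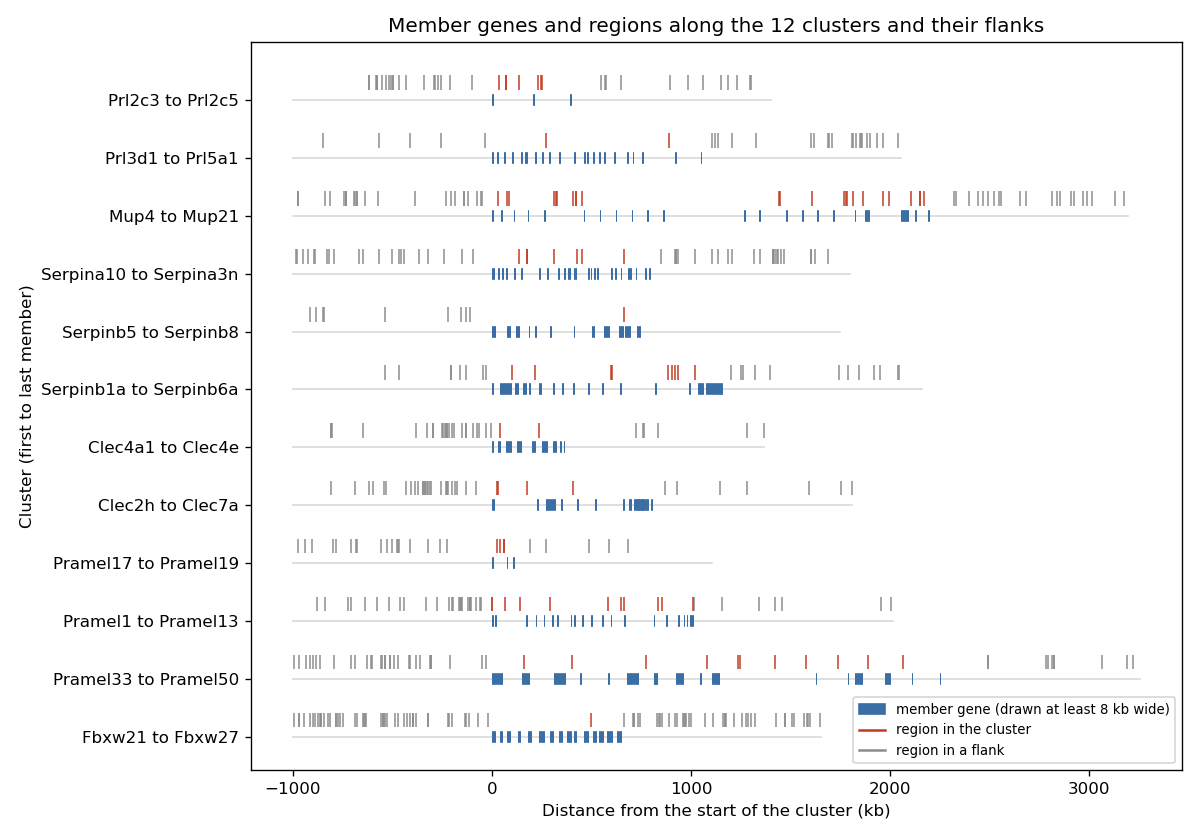
Position along each cluster and its flanks, in kb from the start of the cluster, of member genes (blue), regions inside the cluster (red) and regions in the flanks (grey). Regions thin out over the gene runs of Prl3d1 to Prl5a1 and Fbxw21 to Fbxw27, whereas the 24 regions of the Mup cluster stand in groups between genes.

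The regions inside the clusters had folds in the range of the whole list. Their median was 15.05-fold (2.82 to 78.25) with 75.5 tags, against 12.09-fold with 104 tags over chromosomes 1 to 19. An FDR of at most 5% was given to 45 of the 82 (54.9%), against 57.3%. The 30 distinct regions within 5 kb of the 16 members had a median of 10.48-fold (2.82 to 32.96) with 115.5 tags (17 to 404). Among them 15 (50%) had an FDR of at most 5%, and all of these stood at Fbxw genes except the one that Serpinb2 and Serpinb10 share.

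The promoters of the members, a property that did not enter their choice, were poor in CG. A promoter was matched for 160 of the 200 members and for 16456 protein-coding genes in all. The median window of 300 bases held 2 CG in members (quartiles 1 to 4, highest 31) and 15 over all protein-coding genes (4 to 26). At most 5 CG were found in 139 members (86.9%), against 29.8% of all genes, and 24 members had none. The base composition differed as well, with a median GC content of 44.2% against 57.7%. The letters TATAAA, searched on both strands in every listed window of a gene, occurred in 40 of the 160 members (25%) and in 15% of all genes. By family, the median was 1 CG in Pramel, 2 in Prl and Serpinb, 3 in Mup and 4 in Serpina and Clec. Within Fbxw it was 1 for the clustered genes (0 to 4, n = 12) and 17 for the dispersed ones (3 to 31, n = 7).

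**Figure D5:**
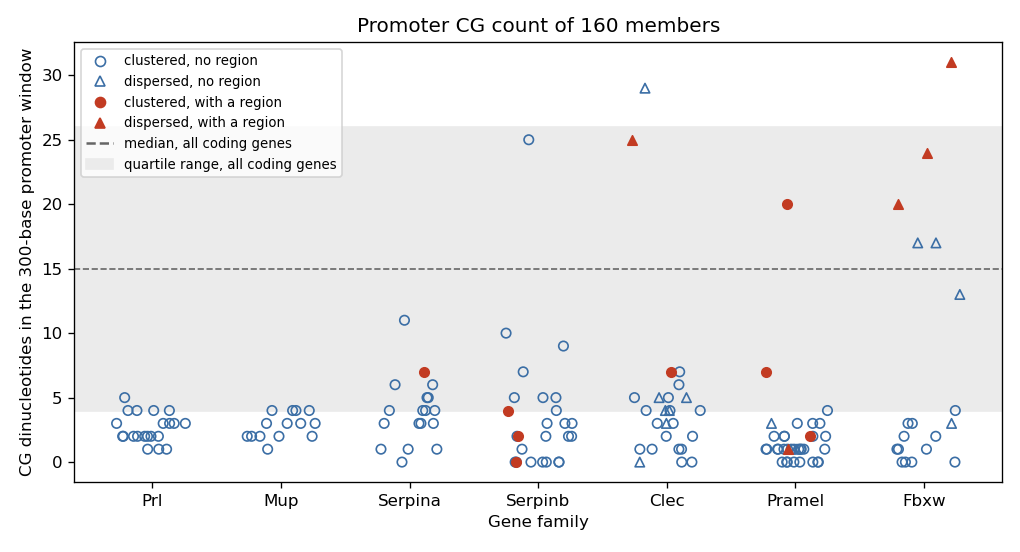
CG dinucleotides in the 300-base promoter window of each of 160 members by family, as circles (clustered) or triangles (dispersed), filled in red where the gene had a region, with the median (15) and quartiles (4 to 26) of all protein-coding genes. All Prl, Mup and clustered Fbxw promoters hold at most 5 CG.

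The counts were then set beside genes with like promoters. Of protein-coding genes with at most 5 CG, 22.8% had a region within 5 kb, and with a length within the members' quartiles as well the share was 22.5%. Among members with at most 5 CG, 5 of 139 had one (3.6%), against 1113 of 4760 other genes (23.4%). With 0 to 2 CG, 4 of 82 members (4.9%) and 433 of 2815 other genes (15.4%) had one. The median distance to the nearest region was then 48.7 kb for members and 44.7 kb for other genes. With 3 to 5 CG the shares were 1 of 57 (1.8%) and 680 of 1945 (35.0%), and the median distances 48.5 and 15.2 kb. Among members with more than 5 CG the share was 8 of 21 (38.1%), against 6934 of 11536 (60.1%). Clustered members alone gave 4 of 129 (3.1%) and 4 of 13 (30.8%). Of the members with a region, Fbxw11 had 31 promoter CG, Clec16a 25, Fbxw7 24, Fbxw2 and Pramel1 20, whereas Serpinb2 had 4, Serpinb1c 2 and Serpinb10 0. Clec2l had 29 CG and no region. The CG content of the genes and of the sequence between them was not analysed here. Its part in the counts was not tested.

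Promoter copies also differed in how alike they were within a family. The median identity of a member's promoter to the closest one of its family was 92.5% in Mup (11 of 14 at 90% or more), 89.3% in Fbxw (7 of 19), 79.2% in Pramel (10 of 36) and 75.3% in Prl (5 of 21). It was 65.2% in Serpina (3 of 18), 52.7% in Serpinb (2 of 26) and 49.0% in Clec (0 of 26). The lowest value of any member was 45.7%, so values near 49.0% lie at the bottom of what this measure gave. Of the 38 members with an identity of at least 90%, 0 had a region, beside 49.0% of all protein-coding genes. From 60 to 90% identity, 2 of 46 had one (4.3%), and below 60%, 11 of 76 (14.5%). The same classes among clustered members gave 0 of 38, 1 of 44 (2.3%) and 7 of 60 (11.7%). The classes differ in their families, and Prl and Mup genes had no region at any identity. Identity and family were not separated here. Reads from near-identical copies may be dropped or shared, depending on the aligner's settings. Their part in the low counts was not tested.

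Other large families lay on both sides of the members' highest family share, 20.83% in Fbxw. Of the olfactory and vomeronasal receptor genes, tandem families as well, 73 of 1456 (5.0%) had a region. Of the Klr genes, natural killer receptors, 2 of 29 (6.9%) had one. The olfactory and vomeronasal genes had a median length of 1.0 kb and the Klr genes of 14.7 kb, against 9.5 kb for the members. Beside 49.0% of all protein-coding genes, the share was 23 of 99 (23.2%) for Cyp genes and 187 of 388 (48.2%) for Zfp genes. Their median lengths were 22.5 and 18.0 kb. Among marker genes of cell types that the culture could hold, 3 of 6 chondrocyte genes had a region, beside 49.0% of all protein-coding genes. These were Col2a1 (8.65-fold), Col9a1 (6.98-fold) and Acan (6.09-fold, FDR 82.88%), whereas Sox9, Matn1 and Comp had none. All 3 macrophage and blood genes had one (Cd68 with an FDR of 51.39%), as did 1 of 2 endothelial genes and both fibroblast genes. A list of methylated regions cannot show which of these genes were expressed, so the cell type was not checked by it.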

How the data were processed

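MBD-seq was done on 1 Control and 1 Uhrf1 cKO library of primary chondrocytes. Per the file headers, the authors called regions with MACS 1.4.2, with Control as the enriched library and cKO as background, a p limit of 1e-10, a regional background over 1000 and 10000 bp and at most 1 tag per position. That left 9782276 of 21831989 Control tags (44.8%) and 15039206 of 19760028 cKO tags (76.1%). Per the submitters' processing notes the genome was mm10. The sources used here name no aligner and do not say what it did with reads matching several places. In the deposited list the tag count of a region is a whole number of Control tags, the score grows with the negative log10 of the caller's p, the fold is a ratio of Control to local cKO signal, and the FDR is a percent, all as the authors deposited them. Their low tag counts limit the precision of single regions.

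Genes, positions and promoter windows came from RefSeq tables of GRCm38.p6, without exons, so exonic and intronic places were not analysed here. A gene had a region where at least 1 bp of a region overlapped its span widened by 5 kb. Clusters needed 3 members with at most 1 Mb between neighbours. Regions were assigned to clusters and their 1 Mb flanks by summit. Intervals are exact binomial and exact Poisson at 95%. Where a gene had several promoter windows, the one with the most CG counted, except that TATAAA counted in any of them. Distances along Mup genes run from the outer end of the gene span. Promoter identity is 100 minus the edit distance (edlib 1.3.9.post1) in percent of 300 bases. It takes the place of the planned protein identity, which was not analysed here. The code was tested on simulated data. The software was SciPy 1.17.1, pandas 2.3.3, NumPy 2.4.6 and Matplotlib 3.10.9 under Python 3.11.15.

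Members, gene lists and alternatives were chosen with earlier results of these data known. Per family, the rule named up to 6 clustered and 6 dispersed members with a region by number and fold, the 3 longest clustered members without one, and the members nearest each region of a cluster. Uhrf1 and up to 4 genes of each pathway list with a region were added, 1 of which is not reported here. The genes behind the printed promoters, the farthest members and other genes outside this rule were picked after their values were seen.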

Additional observations from a re-analysis of the deposited data

How the results depend on the processing

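The count of members with a region was 16, of which 9 were clustered. With regions of p at most 1e-20 the counts were 9 and 4, beside 41.39% of all protein-coding genes. At an FDR of at most 5% they were 7 and 2, beside 36.54%. With gene spans not widened they were 10 and 5, beside 39.51%. With spans widened by 20 kb they were 59 and 41, beside 67.47%, and 18 of the 24 dispersed members (75%) had a region. The count of protein-coding genes with a region stayed within 1.5 times its value under every alternative run. In 10 of 12 clusters the density, taken without its interval, lay below the flanks under all 6 alternatives. These varied flank width, joining distance, region limits and overlap. Over all 24 results and 155 comparisons with an alternative, 32 values moved and 0 reversed. A count had moved where it changed by over 1.5 times, and a ratio of cluster to flanks where it left the counting interval of the cluster's density over that of its flanks. These intervals are wide: at p of at most 1e-20 the ratio went from 0.29 to 0.1 for Clec2h to Clec7a and from 0.3 to 0.67 for Serpinb5 to Serpinb8, both within them. Of the moved values, 20 were counts per family and 3 were ratios of a cluster to its flanks. The counts of all members and of clustered members moved at p of at most 1e-20 and at an FDR of at most 5%. They also moved with spans not widened or widened by 20 kb, and under no other alternative. The count of dispersed members moved with 20 kb alone. No paired analysis was possible because there was 1 library per group. Leaving out a replicate was not possible for the same reason.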
